A study of Mus musculus with 3 samples.

Results

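Cells that combined a high level of Hhip with no detected Pdgfra transcript were examined among the MyoFB-Ter cells of the neonatal mouse lung, 1 of the 10 cell types named in the deposited annotation. Members were chosen by 2 measured values: a MyoFB-Ter cell was taken when it held 0 Pdgfra unique molecular identifiers (UMIs, each counting 1 captured transcript) and held at least 1000 Hhip UMIs when its counts were scaled to a total of 1000000 UMIs (CPM). This rule was met by 102 of 516 MyoFB-Ter cells and hence by 1.66% of the 6142 cells of the series. Members numbered 17 in the GFP-low tdT-negative library, 79 in the GFP-high tdT-high library and 6 from the GFP-high tdT-negative one. They are called GFP-low, tdT-high and tdT-negative members by library below. The remaining MyoFB-Ter cells numbered 6, 111 and 297 in that order.

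The cells came from lungs of pups at postnatal day 7, and every library had the same genotype, Fgf18CreERT2/+; ROSATDTomato/+; PdgfrαEGFP/+, and the same treatment, tamoxifen from postnatal day 2 to day 5. The allele at Fgf18 gives a tamoxifen-dependent Cre recombinase wherever Fgf18 is expressed, the ROSA allele turns on tdTomato for good once Cre has acted, and the Pdgfra allele reports Pdgfra expression through a green fluorescent protein listed in the files as H2BGFP. Cells were sorted into 3 gates by fluorescence, each gate gave 1 droplet library, and no unsorted or untreated library was used. With 1 library per gate no test was possible, gate and library cannot be told apart, and all intervals below are exact 95% intervals of counting error only.

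Hhip encodes a membrane protein that binds hedgehog ligands and limits their signal. It is itself switched on by hedgehog signalling, so that cells which receive the signal make their own brake. In the lung the ligand comes from the epithelium and acts on the mesenchyme around it, where smooth muscle wraps airways and myofibroblasts form the tips and rings of the growing alveolar septa. Pdgfra, the receptor for platelet-derived growth factor A, marks alveolar fibroblasts and myofibroblasts and is low in mature smooth muscle. Both smooth muscle cells and myofibroblasts contain contractile actin and myosin, so contractile genes alone do not separate them.

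Depth was similar in all groups, with a median of 18984 UMIs per cell in GFP-low members, 19869 in tdT-high members and 15428.5 in tdT-negative members, against 19117.5, 19837 and 16775 in the remaining MyoFB-Ter cells. Median mitochondrial shares were 4.75%, 3.69% and 3.48% in members, against 4.12%, 3.47% and 2.88% in the remaining cells. The libraries held 26586489 (GFP-low), 34506226 (tdT-high) and 68692834 UMIs (GFP-high tdT-negative). Cdk8 set the GFP-high tdT-negative library off from the others, at 2222 CPM in its members and 1556 CPM in its remaining MyoFB-Ter cells, against 5479 and 6506 CPM in GFP-low and tdT-high members. Only 4 cell barcodes occurred in more than 1 library, and 0 members carried one of them. UMIs of Xist and of Y-linked genes were found in different cells, 7 and 9 of the GFP-low and 26 and 45 of the tdT-high members, with both in 2 tdT-high members, so both libraries held cells of both sexes.

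The rule picked very different shares of the MyoFB-Ter cells of each gate. Members were 73.9% of them in the GFP-low library (51.6 to 89.8), 41.6% in the tdT-high library (34.5 to 48.9) and 1.98% in the GFP-high tdT-negative library (0.730 to 4.26). The sort itself bears on these shares, since the GFP gates act on the Pdgfra reporter. Pdgfra had 0 UMIs in 22 of 23, 144 of 190 and 52 of 303 MyoFB-Ter cells of these libraries. Hhip reached 1000 CPM in 18, 98 and 31 of them. The Hhip condition did not simply follow the Pdgfra condition in the tdT-high library, where 54.9% (46.4 to 63.2) of the 144 cells without and 41.3% (27.0 to 56.8) of the 46 cells with a Pdgfra UMI reached the Hhip minimum, with overlapping intervals.

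**Figure D1:**
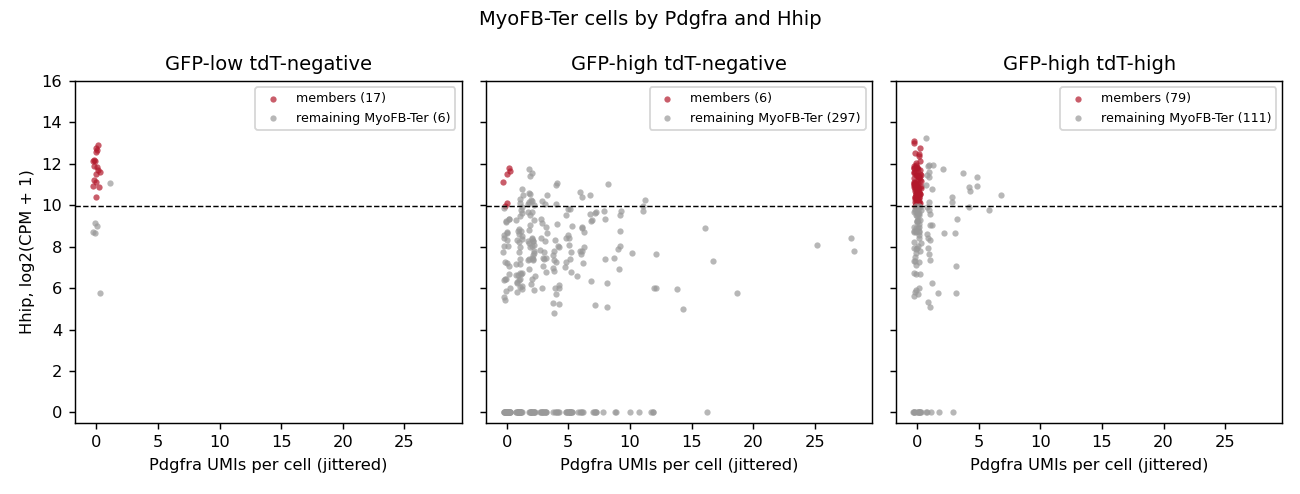
Hhip level per cell as log2(CPM + 1) against Pdgfra UMIs per cell in the MyoFB-Ter cells of the 3 libraries, with members in red and remaining cells in grey, horizontal jitter added and the 1000 CPM minimum as a dashed line. The 17, 6 and 79 members lie above the line at 0 Pdgfra UMIs, and cells lie close to the line on both sides.

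The cut was made through a continuous range of levels. The members nearest to it held 1006, 1015 and 1089 CPM of Hhip, and the nearest cells without Pdgfra below it held 996, 992 and 955 CPM. There were 11 members between 1000 and 1200 CPM and 10 cells without Pdgfra between 800 and 1000 CPM. A further 15 MyoFB-Ter cells with enough Hhip missed the rule by 1 Pdgfra UMI, and 30 by more. A count of 0 at this depth does not show that a cell lacked Pdgfra: after each cell was thinned to 5000 UMIs, 131 rather than 52 of the 303 GFP-high tdT-negative MyoFB-Ter cells had none.

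Hhip (chromosome 8, 79965851 to 80058006, GRCm38) and Pdgfra (chromosome 5, 75152292 to 75198215) are given as a description, since they chose the cells. Hhip per cell ranged over 1352 to 7626 CPM with a median of 3687 CPM in GFP-low members, over 1015 to 8751 CPM with a median of 2020 CPM in tdT-high members, and over 1006 to 3623 CPM with a median of 2608 CPM in tdT-negative members. Summed over cells this gave 3909, 2438 and 2416 CPM, against 800, 813 and 282 CPM in the remaining MyoFB-Ter cells of the same libraries. Pdgfra was 0 in members by choice, against 8, 41.2 and 213 CPM in the remaining cells.

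The rule did not use the reporter transcripts. H2BGFP is expressed from the Pdgfra allele, however, so its level in members is tied to their choice by 0 Pdgfra UMIs and is a description. H2BGFP, low in the members of every gate, was found in 0 of 17 GFP-low members, 4 of 79 tdT-high members (2.57 CPM) and 1 of 6 tdT-negative members (10.8 CPM), against 1 of 6 (8 CPM), 20 of 111 (10.8 CPM) and 204 of 297 (84.7 CPM) remaining cells. The tdT-high members had passed a GFP-high gate, and 536 of 801 MyoFB-Int cells of the same library held an H2BGFP UMI, at 85.2 CPM; how long the fluorescent protein outlasts its transcript was not tested. The transcript TDT of tdTomato was found in 53 of 79 tdT-high members (75.1 CPM), against 78 of 111 remaining cells (81.6 CPM), and in 0 of the 17 GFP-low and 0 of the 6 tdT-negative members. Fgf18, a growth factor gene whose locus drives the label, stood at 114 CPM in tdT-high members, against 157 CPM in the remaining cells of that library. GFP-low members held 42.4 CPM of Fgf18 and 11.3 CPM of the CreERT2 transcript, and tdT-negative members held 216 and 53.9 CPM, so transcripts of the Fgf18 locus were present in members without tdTomato.

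The 5 genes by which these cells had been labelled did not mark them as one group. Myh11, the smooth muscle myosin heavy chain (chromosome 16, 14194535 to 14291372), had a UMI in all 102 members and stood at 1757 CPM in GFP-low, 1092 CPM in tdT-high and 874 CPM in tdT-negative members, against 2502, 788 and 795 CPM in the remaining cells. Actc1, the cardiac type of alpha actin (chromosome 2, 114047282 to 114053548), was found in 15 of 17 GFP-low members but in 5 of 79 tdT-high and 0 of 6 tdT-negative members. Lrrc15, a leucine-rich repeat membrane protein (chromosome 16, 30269302 to 30283256), had the opposite order, in 62 of 79 tdT-high members and 5 of 17 GFP-low members. Its level was 186 CPM in tdT-high members, against 159 CPM in the remaining cells of that library, a ratio of 1.17 (0.999 to 1.37). Kcnq5, a voltage-gated potassium channel gene (chromosome 1, 21398403 to 21961942), was the one label besides Hhip that was at least 2-fold higher in members within the tdT-high library. Among members the name smooth muscle-like therefore rests mainly on the 17 GFP-low ones. The 6 remaining GFP-low cells held more Myh11 than these, so the name does not set members apart within that library. Members are called by the rule below.

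**Figure D2:**
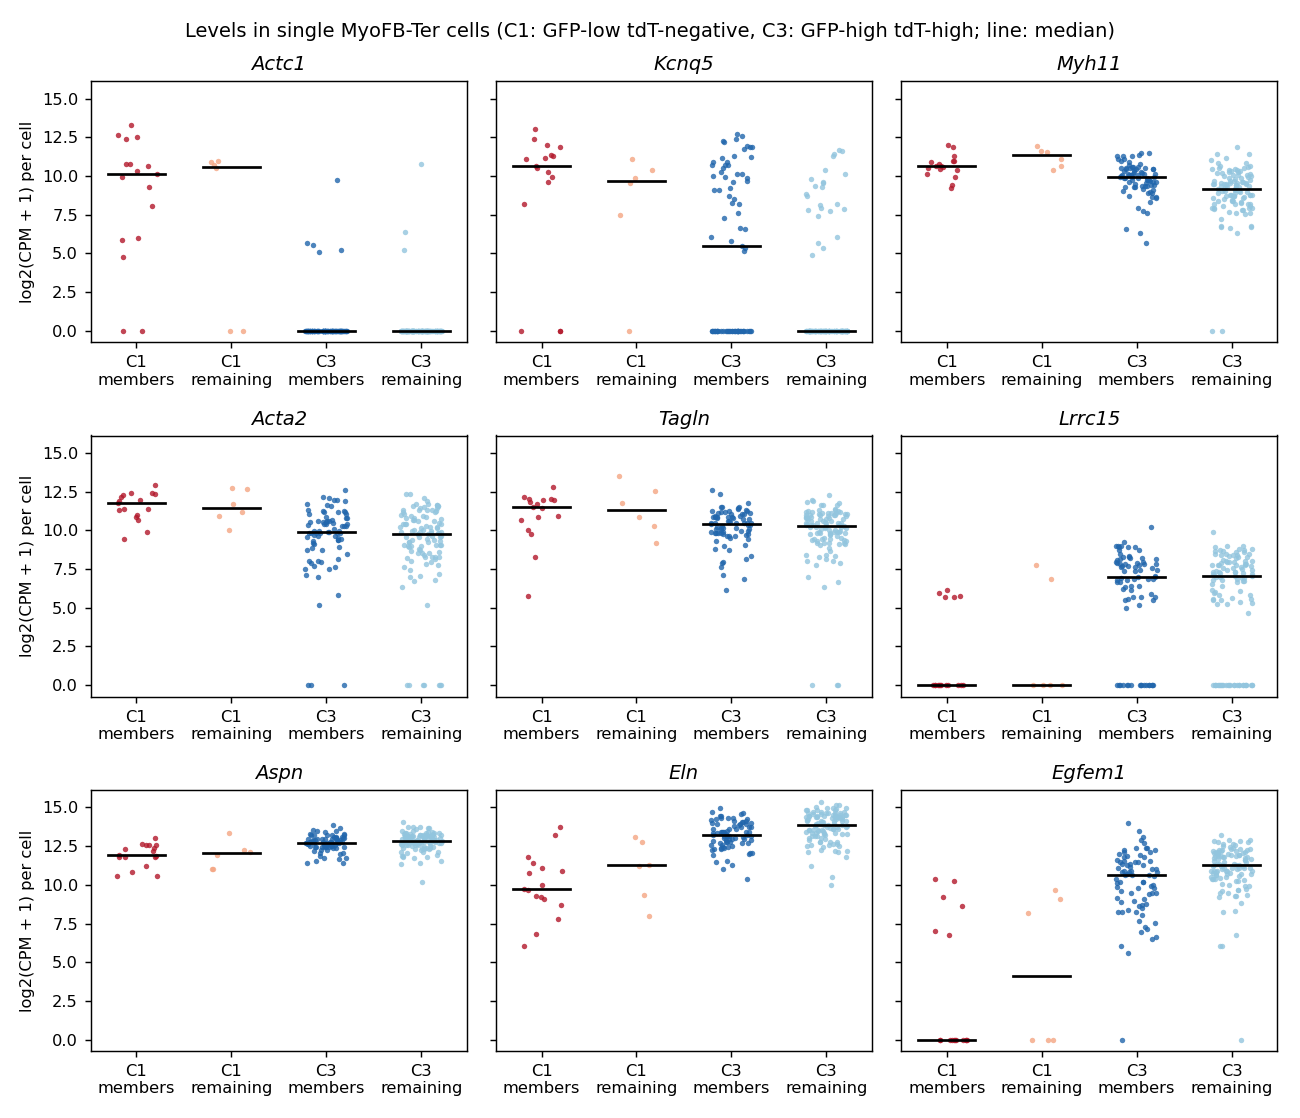
Level of 9 genes in single MyoFB-Ter cells as log2(CPM + 1), for members and remaining cells of the GFP-low tdT-negative library (C1; 17 and 6 cells) and the GFP-high tdT-high library (C3; 79 and 111 cells), with the median as a line. Actc1 separates the libraries rather than members from remaining cells, Kcnq5 is spread from 0 to 6694 CPM among tdT-high members, and Eln and Egfem1 are low in both GFP-low groups.

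Within the tdT-high library members and remaining MyoFB-Ter cells were close to alike. This comparison holds gate and library fixed, with 79 against 111 cells and 1557644 against 2304709 UMIs. A gene was compared when the higher group reached 50 CPM and 25% of its cells held a UMI. Of 3842 such genes, 23 (0.599%) reached a 2-fold higher level in members and 16 (0.416%) a 2-fold lower one; the rule used this contrast, so the counts are a description. Across 5900 genes the log2 CPM of the 2 groups had a Pearson r of 0.970, against 0.907 for members beside MyoFB-Int cells of the same library; these correlations are across genes that share libraries and are a description.

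Kcnq5 stood at 906 CPM in tdT-high members, against 177 CPM in the remaining cells, a ratio of 5.12 (4.58 to 5.73). It was far from uniform among them: 37 of the 79 members had no Kcnq5 UMI, 22 held at least 1000 CPM and the highest held 6694 CPM. After thinning, 48.1% (36.7 to 59.6) of tdT-high members held a UMI, against 20.7% (13.6 to 29.5) of the remaining cells. Among the 79 members its level followed Hhip with a Spearman rho of 0.60, given as a description of cells from 1 library, while the UMI total of a cell had a rho of -0.018 with Hhip. Split by both conditions of the rule, Kcnq5 was at 906 CPM in the 79 members, 553 CPM in the 19 cells with Hhip and Pdgfra, 108 CPM in the 65 cells with neither and 57.1 CPM in the 27 cells with Pdgfra alone. Both groups at or above the Hhip minimum were thus above both groups below it. Against the 65 cells without Pdgfra below the Hhip minimum, 38 of 3875 genes (0.981%) were 2-fold higher in members and 31 (0.8%) were 2-fold lower. Against the 19 Hhip-high cells with Pdgfra, 49 of 3956 genes (1.24%) were higher and 55 (1.39%) were lower.

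The other 11 of the 12 highest ratios belonged to genes of lower level than Kcnq5. Tmeff2, a transmembrane protein with follistatin-like domains, had the highest ratio at 5.79 (57.8 against 9.98 CPM; 3.63 to 9.59), and Corin, a protease that activates natriuretic peptide, stood at 51.4 against 11.7 CPM. Gas1, a membrane co-receptor of hedgehog ligands, was at 159 against 56.0 CPM, a ratio of 2.84 (2.29 to 3.55), with a UMI in 70.9% and 45.9% of cells. Slc24a4, a sodium, potassium and calcium exchanger gene, was at 234 against 88.5 CPM, Cacna1e, an R-type calcium channel subunit gene, at 162 against 69.4 CPM, and Otof, the calcium sensor otoferlin, at 188 against 71.2 CPM. Olfr1033, Lmcd1, Ndnf, Slc16a10 and Dock10 completed the 12 highest, with ratios of 4.06, 2.71, 2.72, 2.58 and 2.33.

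The low genes included secreted and membrane proteins. Ccn2, connective tissue growth factor and a known target of transforming growth factor beta, was at 86.0 CPM in members against 286 CPM in the remaining cells, 3.33-fold lower (2.76 to 4.04), with a UMI in 51.9% and 76.6% of cells. Grem1, a secreted inhibitor of bone morphogenetic proteins, was at 14.8 against 61.6 CPM, and Ackr3, a scavenging chemokine receptor, at 21.8 against 70.7 CPM. Cemip, which takes part in the breakdown of hyaluronan, was 2.80-fold lower, and Niban1, Ogn, Mmp23, C1qtnf7, Emp1, Limch1 and Pappa2 were between 2.32-fold and 3.04-fold lower. The level in the 19 Hhip-high cells with Pdgfra split these genes. Grem1 (14.1 CPM), Ackr3 (16.5 CPM), Cemip (56.5 CPM), Emp1 (9.41 CPM) and Pappa2 (49.4 CPM) were there at or below their level in members, whereas Ccn2 (252 CPM) was close to its level in the remaining cells.

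**Figure D3:**
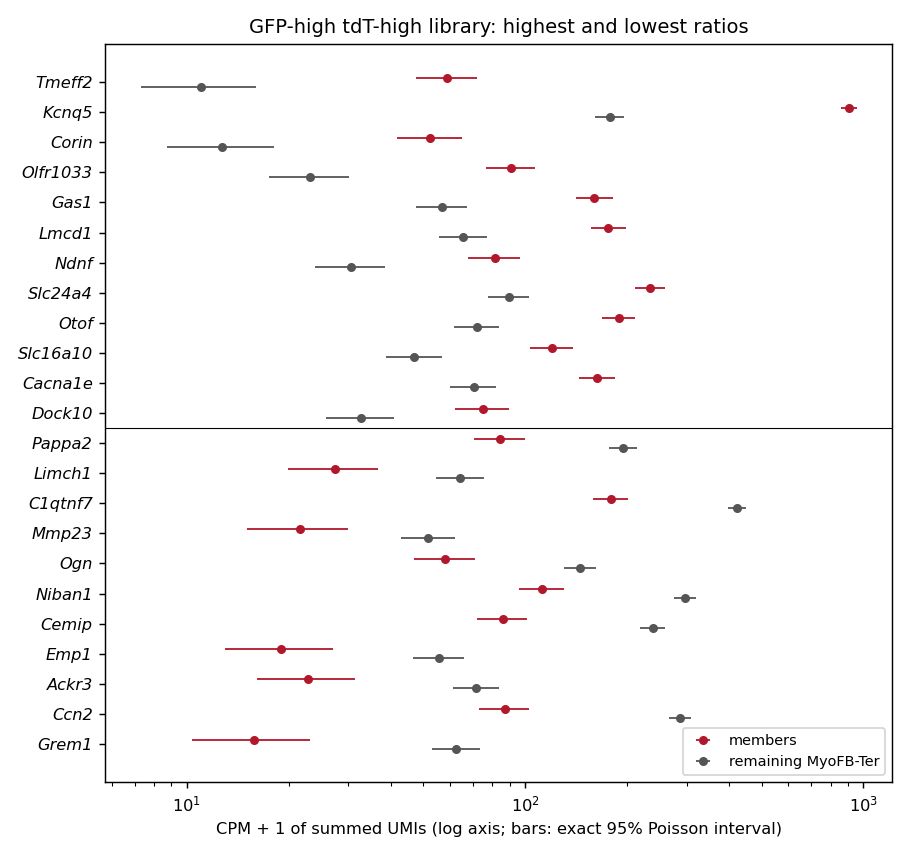
CPM + 1 on a log axis of the genes with the highest (upper 12) and lowest (lower 11) ratios of members (red) over remaining MyoFB-Ter cells (grey) in the GFP-high tdT-high library, with exact 95% Poisson intervals. Kcnq5 stands apart by level, at 906 against 177 CPM, and Ccn2 lies below, at 86.0 against 286 CPM.

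Gene lists differed little as well. A list member was measured with at least 10 UMIs over both groups and counted from 1.5-fold; in the tdT-high library 10.4% of 13302 such genes were higher, 11.5% were lower and the median log2 ratio was -0.0091. Of 29 measured contractile genes, 2 (Kcnmb1 among them) were higher and none was lower, and the median was 0.13. Acta2, smooth muscle actin, stood at 1345 against 1227 CPM, Tagln, transgelin, at 1499 against 1417 CPM, Actg2, enteric actin, at 508 against 453 CPM, Cnn1, calponin, at 144 against 138 CPM, and Des, desmin, at 244 against 315 CPM. Myocd, the coactivator that drives smooth muscle genes, was at 442 against 314 CPM. Contractile genes thus differed little between tdT-high members and the remaining tdT-high MyoFB-Ter cells.

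The hedgehog list had 6 of 15 measured genes higher and 0 lower, with a median log2 ratio of 0.50, and Hhip itself, used by the rule, is one of the 6. Besides Gas1, the co-receptors Cdon (29.5 against 9.11 CPM) and Boc (117 against 71.6 CPM) were higher in members, as was Foxl1 (4.49 against 1.74 CPM) at a low level. The receptor and target gene Ptch1 was at 354 against 269 CPM, a ratio of 1.31 (1.17 to 1.47), and the transcription factor and target gene Gli1 at 53.3 against 35.6 CPM, a ratio of 1.50 (1.09 to 2.06) just short of the 1.5-fold count. Smo, the signal transducer, was at 93.7 against 88.9 CPM, and Gli2 at 36.0 against 45.6 CPM. In the 19 Hhip-high cells with Pdgfra, Gas1 stood at 122 CPM, against 42.8 and 37.0 CPM in the groups below the Hhip minimum.

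Of 27 measured ion channel genes 6 were higher and 2 were lower, and the median was 0.13. Kcnma1, the large-conductance calcium-activated potassium channel of smooth muscle, stood at 1069 CPM in members against 524 CPM, Kcnd3 at 34.7 against 11.3 CPM and Cacna1d, an L-type calcium channel gene, at 21.8 against 14.3 CPM. Receptors and signal proteins of contraction were higher in 4 of 25 and lower in 1, among them Ednrb, an endothelin receptor gene (139 against 62.0 CPM), and Gucy1b1 (58.4 against 30.8 CPM) and Gucy1a1 (133 against 87.6 CPM), the subunits of the nitric oxide receptor guanylate cyclase. Potassium channels and nitric oxide signals are both known to relax smooth muscle.

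The basement membrane and matricellular list and the transforming growth factor beta and bone morphogenetic protein list had more lower than higher genes. Of 28 basement membrane and matricellular genes 2 were higher and 6 lower, including Postn (610 against 963 CPM) and Thbs2 (175 against 295 CPM) besides Ccn2 and Ogn. Of 33 genes of the transforming growth factor beta and bone morphogenetic protein list 2 were higher and 7 lower, with Tgfb2 at 463 against 792 CPM and Id1, a target of bone morphogenetic proteins, at 61.0 against 101 CPM. Elastic fibre genes and collagens did not exceed the shares over all genes, 10.4% higher and 11.5% lower. Of 18 elastic fibre genes 0 were higher and 1, Fbln5, lower. Of 23 collagens 2 were higher and 1 lower. Eln, the elastin gene, was at 11284 against 16247 CPM, 1.44-fold lower (1.41 to 1.47), and Loxl1, an elastin cross-linking enzyme gene, at 346 against 474 CPM. Of 23 immediate early genes 1 was higher and 3 lower, a lower share near the 11.5% over all genes. Fos, which dissociation can raise, was at 697 against 1041 CPM, and its part in these differences was not tested.

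GFP-low members and tdT-high members differed far more from each other. With 353506 against 1557644 UMIs, 298 of 4177 genes (7.13%) reached a 2-fold higher and 354 (8.47%) a 2-fold lower level in GFP-low members, under the same minimum of level. The profile of GFP-low members was nearest to that of tdT-high members among the groups compared (r = 0.841), ahead of remaining tdT-high cells (0.815), remaining GFP-low cells (0.748, only 6 cells) and contractile AdvFB cells (0.598). Of 22 immediate early genes 3 were at least 1.5-fold higher and 10 lower in GFP-low members (median -0.44). Over all 11263 genes 19.3% were higher and 27.4% lower. The part of immediate early genes in the other differences was not tested.

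Actc1 had the highest ratio. GFP-low members ranged from 0 to 10235 CPM with a median of 1128 CPM, and 9 of 17 held at least 1000 CPM; of the 79 tdT-high members 74 held none and the highest held 861 CPM. Summed over cells this was 2294 against 11.6 CPM, a ratio of 199 (125 to 337). After thinning a UMI was seen in 70.6% (44.0 to 89.7) of GFP-low members, 1.27% (0.0320 to 6.85) of tdT-high members and 0.154% (0.00389 to 0.853) of the 651 MatFB-Type 2 cells of the GFP-low library, whose median depth of 19471 UMIs was close to that of the members. The 6 remaining GFP-low MyoFB-Ter cells held 1223 CPM of Actc1, with a UMI in 4, so the gene went with the GFP-low MyoFB-Ter cells as a whole. None of the 303 GFP-high tdT-negative MyoFB-Ter cells held an Actc1 UMI.

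The contractile genes were higher as a group in GFP-low members than in tdT-high members. Of 28 measured, 20 were at least 1.5-fold higher and 0 lower, with a median log2 ratio of 1.03, while over 11263 genes 19.3% were higher, 27.4% were lower and the median was -0.063. Acta2 per cell ran from 682 to 7812 CPM with a median of 3506 CPM in GFP-low members, against 0 to 6145 CPM with a median of 949 CPM in tdT-high members, and its sum was 2.60-fold higher (2.42 to 2.79). Tagln was 2999 against 1499 CPM, Actg2 1132 against 508 CPM, Tpm2, a tropomyosin gene, 1536 against 390 CPM, and Myl9, a myosin regulatory light chain gene, 1129 against 388 CPM. Cnn1 was 571 against 144 CPM (3.96-fold, 3.26 to 4.80) and was seen in all 17 GFP-low members and 57 of 79 tdT-high members. Ranges of single cells overlapped for Acta2. Within the GFP-low library the level was not particular to members: the list summed to 26579 CPM in GFP-low members, against 30885 CPM in the 6 remaining GFP-low cells. In that contrast 2 of 27 measured contractile genes were higher and 4 were lower (median -0.14), while 31.9% of 6737 genes were higher and 18% lower. Of 19 measured immediate early genes 15 were higher in members there and 0 lower, and their part was not tested. The 6 cells are below the 20 cells per group planned as a minimum. Counting intervals do not cover differences between cells. The transcription regulators of smooth muscle did not share the shift between gates: of 17 measured 2 were higher and 3 lower, and Myocd stood at 512 against 442 CPM.

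Airway smooth muscle markers gave 8 of 13 higher and 1 lower (median 1.06), and Hhip, Actc1 and contractile genes are among the 8. Chrm2, a muscarinic acetylcholine receptor gene, was at 784 against 79.6 CPM (9.84-fold, 7.94 to 12.3) and seen in 11 of 17 against 17 of 79 cells. Ano1, a calcium-activated chloride channel gene that takes part in airway contraction, was at 229 against 1.93 CPM, a ratio of 119 (39.3 to 589) on 3 UMIs in tdT-high members, and was seen in 15 of 17 GFP-low members. Lgr6, an R-spondin receptor gene also used to mark airway smooth muscle, did not differ detectably, at 815 against 817 CPM (ratio 0.998, 0.875 to 1.13). Of 10 vascular smooth muscle markers 5 were higher and 2 lower. Their median was 0.72, and the list summed to 1618 against 1154 CPM. The 5 were Mustn1 (936 against 311 CPM), Lmod1 (331 against 142 CPM), Mcam (116 against 50.1 CPM), Ptp4a3 (50.9 against 26.3 CPM) and Itih4 (11.3 against 4.49 CPM), and Lmod1 is also in the contractile list. The 2 lower were Ntrk3 (93.4 against 555 CPM) and Heyl (0 against 8.35 CPM), and Notch3 stood at 14.1 against 9.63 CPM.

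Ion channel genes were higher in 14 of 27 and lower in 4 (median 0.60). Kcnq5 was 2031 against 906 CPM, Ryr2 and Ryr3, calcium release channel genes of the sarcoplasmic reticulum, were 175 against 41.1 and 147 against 9.63 CPM, Cacna1d was 119 against 21.8 CPM and Kcnd3 167 against 34.7 CPM. Among contraction receptors and signal proteins 11 of 24 were higher and 4 lower, including Ednrb (441 against 139 CPM), Htr2a, a serotonin receptor gene (90.5 against 16.05 CPM), and Rgs2 (1185 against 410 CPM). Ion channel genes summed to 8523 CPM in GFP-low members, 7243 CPM in tdT-high members and 8243 CPM in the 6 remaining GFP-low cells. Contraction receptors and signal proteins summed to 9994, 6866 and 7371 CPM in that order. The hedgehog list had 8 of 15 higher, Hhip among them, and 2 lower, with Ptch1 at 738 against 354 CPM, Gas1 at 402 against 159 CPM and Foxf1, a hedgehog-dependent transcription factor gene, at 209 against 98.2 CPM, but Gli1 at 39.6 against 53.3 CPM. In the cells with Y-linked UMIs alone, 9 GFP-low and 43 tdT-high members, the median of the hedgehog list was -0.032 rather than 0.68. That median was 0.37 with equal weight per cell and 0.30 with cells thinned to 5000 UMIs.

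**Figure D4:**
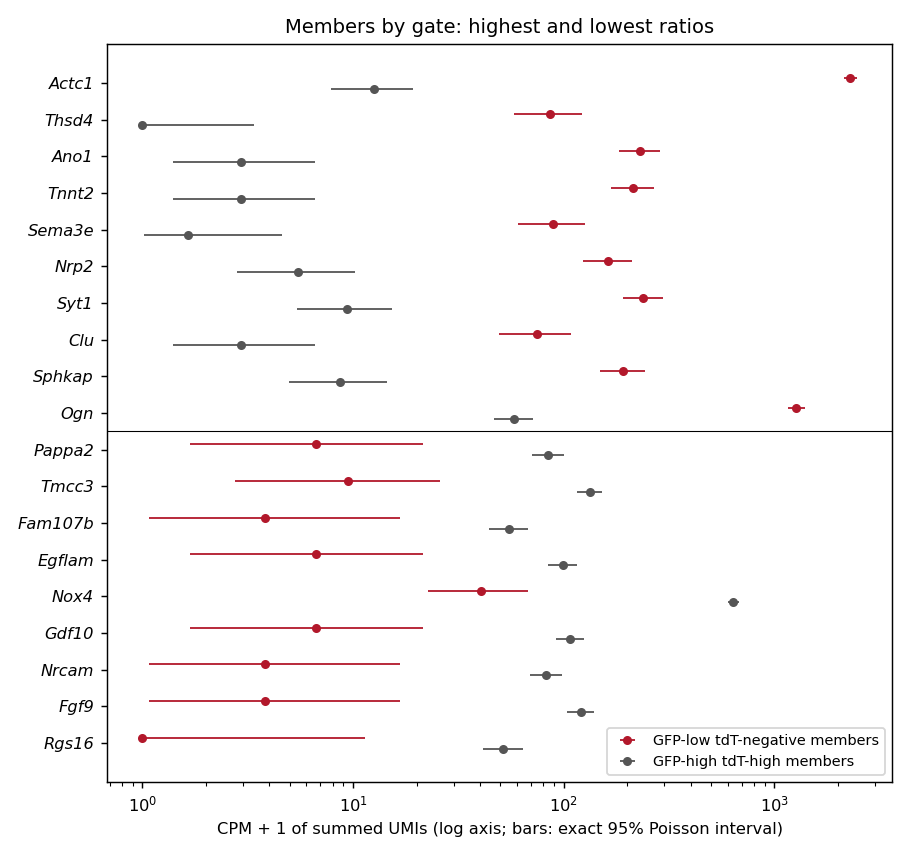
CPM + 1 on a log axis of the genes with the highest (upper 10) and lowest (lower 9) ratios of GFP-low tdT-negative members (red, 17 cells) over GFP-high tdT-high members (grey, 79 cells), with exact 95% Poisson intervals. Actc1 has the highest level of the upper set, at 2294 against 11.6 CPM, and Nox4 the highest of the lower set, at 39.6 against 638 CPM.

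The other genes with the highest ratios included Tnnt2, cardiac troponin T (212 against 1.93 CPM, on UMIs in 6 of 17 cells), and the guidance genes Sema3e (87.7 against 0.642 CPM) and Nrp2 (161 against 4.49 CPM). Syt1, the synaptic vesicle calcium sensor, was 238 against 8.35 CPM, Sphkap 190 against 7.70 CPM, Clu, clusterin, 73.5 against 1.93 CPM and Ogn, a matrix proteoglycan, 1270 against 57.1 CPM. Thsd4 had 30 UMIs in 5 GFP-low members and 0 in tdT-high members, which allows up to 1.93 CPM. Syt1 and Ogn were each carried by 8 of the 17 GFP-low members.

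The genes with the lowest ratios had few UMIs in GFP-low members. Nox4, a hydrogen peroxide-producing oxidase gene, was at 39.6 CPM in GFP-low members against 638 CPM in tdT-high members, 16.1-fold lower (9.55 to 29.5). Fgf9, a fibroblast growth factor gene, was at 2.83 against 119 CPM on 1 UMI in GFP-low members, and Gdf10, a ligand of the bone morphogenetic protein family, at 5.66 against 107 CPM. Rgs16 had 0 UMIs in GFP-low members, which allows up to 8.49 CPM, against 50.7 CPM. Nrcam, Egflam, Fam107b, Tmcc3 and Pappa2 were also among the 10 lowest, each with 1 to 3 UMIs in GFP-low members.

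Alveolar myofibroblast, elastic fibre and collagen genes were more often lower than higher in GFP-low members. The same held for all 11263 measured genes, with 27.4% lower and 19.3% higher. Other matrix lists were mixed. Of 14 alveolar myofibroblast markers 8 were lower and 4 higher (median -0.86), the 4 being Hhip, Acta2, Tagln and Mustn1. Egfem1, an extracellular protein gene of the list, was at 277 against 2201 CPM (7.94-fold lower, 6.49 to 9.81) and absent from 11 of 17 GFP-low members but from 1 of 79 tdT-high members. Eln per cell had a median of 859 CPM (66 to 13826) in GFP-low members, against 9698 CPM (1347 to 31972) in tdT-high members, and its sum was 3.89-fold lower (3.65 to 4.14). Elastic fibre genes were lower in 7 of 18 and higher in 0, collagens lower in 8 of 21 and higher in 2 (the basement membrane genes Col4a5, 317 against 86.0 CPM, and Col4a6, 272 against 46.9 CPM). Basement membrane and matricellular genes were higher in 9 of 26 and lower in 10, with the basement membrane gene Hspg2 at 283 against 97.6 CPM, Sparcl1 at 2501 against 837 CPM and Thbs1 at 255 against 690.1 CPM. Ductal myofibroblast markers were higher in 4 of 9, Hhip among them, and lower in 4. Aspn, a small matrix proteoglycan abundant in all members, was 4368 against 7005 CPM and reached 1000 CPM in every member of both groups. Wnt pathway genes were lower in 11 of 27 and higher in 3, with Wnt5a at 238 against 832 CPM, Ror1 at 195 against 542 CPM and the target gene Axin2 at 14.1 against 40.4 CPM. Lower sums of elastic fibre, alveolar myofibroblast, collagen and Wnt genes were shared by the 6 remaining GFP-low cells. Elastic fibre genes summed to 6226 CPM in GFP-low members, 16022 CPM in tdT-high members and 6684 CPM in the 6 remaining GFP-low cells. Alveolar myofibroblast markers summed to 21140, 31127 and 19980 CPM in that order. Collagens summed to 10133, 13311 and 8371 CPM and Wnt genes to 2552, 3726 and 2622 CPM.

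**Figure D5:**
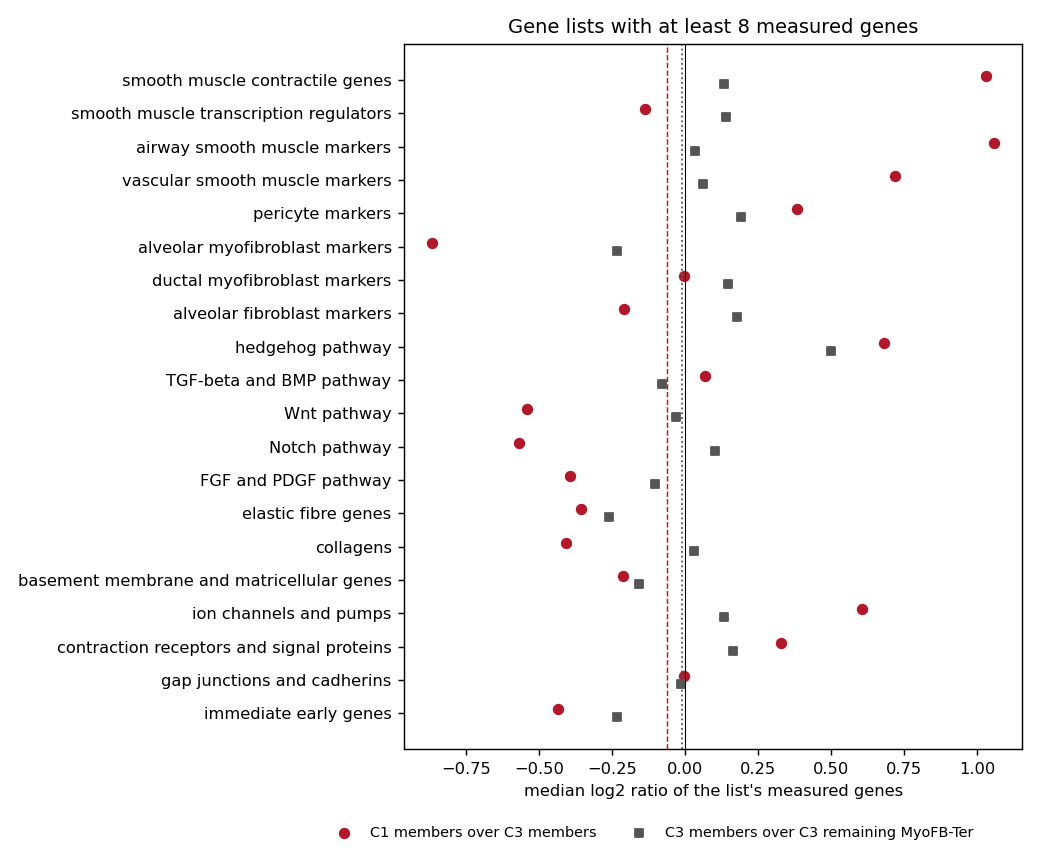
Median log2 ratio of each gene list with at least 8 measured genes, for GFP-low members over tdT-high members (red circles, C1 over C3) and for members over remaining MyoFB-Ter cells in the tdT-high library (grey squares), with the medians of all measured genes as dashed and dotted lines. Contractile genes lie at 1.03 between gates but at 0.13 within the tdT-high library, and hedgehog genes, Hhip included, lie at 0.68 and 0.50.

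The promoters of 2 contractile genes that were higher in GFP-low members are shown because each holds a CArG box, the motif bound by serum response factor with Myocd (CC, then 6 letters A or T, then GG), which is in capitals. They run from 250 bases before to 50 after a RefSeq transcript start on GRCm38.p6, 5′ to 3′ along the gene. Actc1 is at chr2:114052826-114053125 on the minus strand, with the box starting 47 bases before that transcript start. Myl9 is at chr2:156775214-156775513 on the plus strand, with the box starting 161 bases before its transcript start. The Actc1 window lies inside the GENCODE span of the gene given above, which on this strand starts at 114053548.
Actc1: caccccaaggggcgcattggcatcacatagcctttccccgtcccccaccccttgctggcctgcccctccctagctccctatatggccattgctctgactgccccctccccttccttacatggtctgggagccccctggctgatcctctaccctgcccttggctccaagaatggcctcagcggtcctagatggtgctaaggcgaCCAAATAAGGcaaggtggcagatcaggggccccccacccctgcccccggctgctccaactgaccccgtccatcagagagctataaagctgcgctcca
Myl9: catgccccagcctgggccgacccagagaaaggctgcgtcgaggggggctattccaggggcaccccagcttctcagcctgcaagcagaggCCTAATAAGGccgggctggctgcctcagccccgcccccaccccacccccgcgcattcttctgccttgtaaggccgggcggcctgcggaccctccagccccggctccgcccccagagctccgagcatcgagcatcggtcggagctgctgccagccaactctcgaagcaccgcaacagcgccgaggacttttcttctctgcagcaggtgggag
Both strands were searched, and the box reads as a CArG box on either. It was found in at least 1 promoter of 6 of the 26 contractile-list genes with an entry, some of which have more than 1. Of all 32851 single promoters of the same length 1.63% held it. Acta2, Cnn1, Tpm2 and Lmod1, also higher in GFP-low members, had 0 matches. The boxes were CCAAATAAGG in Actc1 and CCTAATAAGG in Myl9. The motif GACCACCCA, bound by the hedgehog effectors of the GLI family, was found in 0 of 30 genes scanned, Hhip included, and in 0.253% of all promoters. A match describes the letters only, and no match says only that these letters are not in this window.

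The 6 tdT-negative members are too few for a comparison and are given as values. All 6 held Myh11 (712 to 1400 CPM per cell), Acta2 and Aspn, and 4 of 6 held at least 1000 CPM of Acta2. They held 0 UMIs of Actc1, Ano1 and Chrm2, each of which allows up to 32.4 CPM, and 2 of 6 held Kcnq5 (86.3 CPM). Eln (11077 CPM), Nox4 (410 CPM) and Wnt5a (884 CPM) lay nearer to the tdT-high than to the GFP-low members, while Egfem1 (6428 CPM) was above both.

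Summed over all libraries, 102 of 3993 genes (2.55%) reached a 2-fold higher and 92 (2.3%) a 2-fold lower level in members, set against the remaining MyoFB-Ter cells; the rule used this contrast too. This sum sets gates against each other, because the GFP-high tdT-negative library gave 5.88% of members but 71.7% of remaining cells; without that library the counts were 35 and 16, and without the tdT-high library 280 and 361. Kcnq5 had the highest ratio (14.4), followed by Col4a6, Otof, Tmeff2, Tmod1, Dgkb, Bmp3, Slc24a4, Ednrb, Cacna1e, Olfr1033 and Zbtb7c, and 11 of these 12 were also at least 2-fold higher within the tdT-high library, which gave 77.5% of members. Over the whole lists 19 of the 102 higher and 5 of the 92 lower genes passed 2-fold in the tdT-high library. These 2 counts also required 50 CPM and 25% of cells within that library. The counts for the 12 genes at each end did not require this minimum within the tdT-high library. Of the 12 lowest, namely Cd34, Vsnl1, Svep1, Sash1, Septin4, Cdh11, Nrcam, Cdo1, Cd248, Car2, Lamb1 and Adgrl3, 6 were at least 2-fold lower there. Cd34, a fibroblast surface protein, was at 2.57 CPM in tdT-high members against 8.68 CPM in the remaining cells, and Vsnl1 had the opposite direction there, at 7.70 against 6.51 CPM.

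GFP-low AdvFB cells with at least 1000 CPM of Acta2, 40 of 148 AdvFB cells of that library, were also rich in contractile RNA but had another profile. Acta2 stood at 3491 CPM in the 17 GFP-low members, against 5388 CPM in these cells, which were chosen by it. Of 4264 genes 598 (14%) reached a 2-fold higher and 588 (13.8%) a 2-fold lower level in members. Contractile genes were higher in 8 of 28 and lower in 7 (median -0.027), while over 9945 genes 26.4% were higher and 23.9% were lower. Airway smooth muscle markers were higher in 10 of 12 and lower in 0, a count that includes Hhip, whose difference the rule fixed, with Chrm2 at 784 against 65.9 CPM and Des at 509 against 61.8 CPM, while vascular smooth muscle markers were lower in 9 of 12 and higher in 1, with Notch3 at 14.1 against 236 CPM and Heyl at 0 against 109 CPM. Adventitial markers were lower in 10 of 10 measured, Ebf1, a transcription factor gene, was at 0 against 1040 CPM and Erbb4, a neuregulin receptor gene, at 0 against 1036 CPM. Agt, angiotensinogen, was at 622 CPM against 0, and Tgfbi, a matrix protein, at 1035 against 1.03 CPM on 1 UMI. Agt and Tgfbi were as high or higher in tdT-high members, at 632 and 2486 CPM. Immediate early genes, which dissociation can raise, were lower in 18 of 23 and higher in 2 (median -2.48), with a sum of 4676 CPM in GFP-low members against 14494 CPM in contractile AdvFB cells and Fos at 614 against 2691 CPM; their part in the other differences was not tested.

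Outside MyoFB-Ter, 34 of 5626 cells met both gene conditions, 20 of them MatFB-Type 2 cells of the GFP-low library and 9 MyoFB-Int cells of the tdT-high library. The 20 MatFB-Type 2 cells had Hhip at 1461 CPM but Myh11 at 3.12 CPM, Acta2 at 43.7 CPM and Tcf21, a transcription factor of lipid-storing fibroblasts, at 868 CPM. High Hhip without Pdgfra UMIs thus also occurred in cells with almost no contractile RNA. The 9 MyoFB-Int cells had Hhip at 1965 CPM, Aspn at 3039 CPM, Myh11 at 519 CPM and Actc1 at 0.

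Against the 1268 MyoFB-IMR and MyoFB-Int cells of the tdT-high library, members of that library differed in many more genes, 195 of 4036 (4.83%) with a 2-fold higher and 209 (5.18%) with a 2-fold lower level. Otof was at 188 against 2.36 CPM, Lrrc15 at 186 against 4.999 CPM and Scx, the tendon transcription factor scleraxis, at 248 against 12.1 CPM. The remaining MyoFB-Ter cells of the library were also above that level, with 71.2, 159 and 179 CPM of these genes. Contractile genes had a median log2 ratio of 0.59 in members over MyoFB-IMR and MyoFB-Int cells, against -0.11 over all measured genes. Their sum was 12649 CPM in members, 11664 CPM in the remaining MyoFB-Ter cells and 9585 CPM in the MyoFB-IMR and MyoFB-Int cells. Airway smooth muscle markers, Hhip included, summed to 4567, 2774 and 1180 CPM in that order.

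Markers of pericytes and other fibroblasts were detected in members. Over all libraries, where gates are mixed in unequal shares, the pericyte list summed to 1774 CPM in members, against 963 CPM in the remaining MyoFB-Ter cells. Its median log2 ratio was 0.53, against -0.066 over all measured genes. The alveolar fibroblast list summed to 1810 against 1394 CPM there, and to 1884 against 1704 CPM within the tdT-high library. For the adventitial list these sums were 535 against 368 CPM and 556 against 548 CPM. The pericyte list is followed next. The pericyte list summed to 1692 against 1739 CPM within the tdT-high library (3 of 12 higher and 1 lower). It summed to 2342 CPM in GFP-low members against 1692 CPM in tdT-high members (5 of 12 higher and 1 lower). Rgs5, a pericyte marker, stood at 568 CPM in tdT-high members against 380.1 CPM in the remaining cells, while Pdgfrb, a receptor gene also used to mark pericytes, stood at 48.8 against 52.5 CPM. Epithelial, endothelial, blood and mesothelial markers were low. Over all libraries the summed levels of the epithelial, endothelial, immune, mesothelial and erythroid lists were 15.97, 28.4, 15.97, 41.4 and 10.5 CPM in members, against 16.1, 37.8, 14.9, 45.8 and 10.5 CPM in the remaining MyoFB-Ter cells. The neural and glial list summed to 52.9 against 90.5 CPM over all libraries and to 50.7 against 52.5 CPM within the tdT-high library. In GFP-low members the first 5 lists summed to 33.9, 28.3, 8.49, 22.6 and 14.1 CPM, against 12.2, 30.2, 18.6, 45.6 and 8.99 CPM in tdT-high members. Their part in the differences was not tested, and no doublet caller was run.

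Within the 17 GFP-low members the Spearman rho with Hhip, given as a description, was -0.55 for Des, -0.47 for Actg2, -0.44 for Acta2, -0.41 for Tagln and Actc1, -0.24 for Cnn1, -0.076 for Myh11 and 0.032 for Myocd, and 0.55 for Lgr6. In the 79 tdT-high members it was -0.26 for Des and between 0.11 and 0.25 for the other 7 of these contractile genes and regulators, and 0.33 for Lgr6. These cells share a library and the truncated Hhip range set by the rule.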

How the data were processed

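Sorted cells of enzymatically dissociated lungs went into 10x 3′ v3.1 droplet libraries, per the labels' protocols. The submitters' processing notes name Cell Ranger 7.0.0 and mm10. Raw UMI counts form the deposited matrix of 31730 listed sequences, and the deposited cell table gives each cell's gate, cell type, UMI count and percent of mitochondrial UMIs, all made by the authors. Cell filters, doublet handling and type calling are not given in the sources used here, nor how many pups a library held. Cells with Xist UMIs and cells with Y-linked UMIs occurred in all 3 libraries. A tdTomato-positive GFP-negative population is not analysed here.

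All deposited cells were kept and no doublet caller was run. The UMIs of a gene were added up within each group and divided by the group total (CPM), and ratios are of CPM. Log2 ratios, used for ranks and list medians, add a pseudocount of 1 CPM. Sums have exact Poisson, ratios exact conditional binomial and shares exact Clopper-Pearson intervals at 95%. A count of 0 allows up to 3 counts. Shares called thinned were computed after drawing 5000 UMIs per cell. No test was run, because each gate has 1 library and the members were chosen from measured values.

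Members, comparisons and the 31 gene lists were chosen with earlier results of these data known. The text names the 12 genes at each end of the log2 ratios over all libraries and the 10 at each end between gates, provided the higher group reached 50 CPM and 25% of its cells held a UMI. Hhip, Pdgfra, reporters, unnamed and sex-linked genes were left out, as were haemoglobin, ribosomal protein and mitochondrial genes. Set marker genes and up to 4 genes per list with the largest ratio were also named. The same rule was applied within the tdT-high library and to the neighbouring cell groups after the values were seen, and further list genes were named after their values were seen. Some genes that these rules name are not reported here. Gene coordinates are from GENCODE M21 on GRCm38, the build mm10 names. Alternatives were TMM (edgeR 4.0.16) and median-of-ratios (DESeq2 1.42.0) scaling of the summed counts, equal weight per cell, other pseudocounts and level minimums, stricter cells, thinned UMIs, each library left out, and other reference cells and cut-offs. Calculations, run in Python 3.11.15 with numpy 2.4.6, scipy 1.17.1 and pandas 2.3.3, were tested on simulated data.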

Additional observations from a re-analysis of the deposited data

Results flagged for a closer look

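Of 78 genes compared in both gates, 1 was at least 2-fold higher in members of one library and at least 2-fold lower in members of the other, with both counting intervals clear of 1. Adgrl3, an adhesion receptor gene, stood at 149.9 CPM in GFP-low members against 64.0 CPM in the 6 remaining GFP-low MyoFB-Ter cells, a log2 ratio of 1.22 on 53 and 8 UMIs, and at 347 against 725 CPM in the tdT-high library, a log2 ratio of -1.06. The difference between the gates was not tested, and the 6 remaining GFP-low cells are below the 20 cells per group planned as a minimum.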

How the results depend on the processing

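No paired analysis was possible because each gate has 1 library, and no comparison has a replicate check; leaving out a library replaces it below. TMM and median-of-ratios scaling moved all log2 ratios by at most 0.088 and left the counts within the tdT-high library at 23 higher and 16 lower; between gates they gave 235 and 419 (TMM) and 243 and 410 (median-of-ratios) in place of 298 and 354. With a minimum of 10 CPM and no share of cells the counts of higher and lower genes were 335 and 289 over all libraries, 207 and 185 within the tdT-high library and 1095 and 1376 between gates, where more genes of low count are compared. Against remaining cells without Pdgfra the counts were 57 and 37 over all libraries and 38 and 31 within the tdT-high library; against remaining cells with high Hhip they were 56 higher over all libraries and 49 and 55 within the tdT-high library, with fewer cells in each reference. Leaving out 1 library gave 35 to 280 higher and 16 to 361 lower genes over all libraries. Thinning gave 45 and 36 within the tdT-high library and 464 higher between gates, and cells with Y-linked UMIs alone gave 462 higher between gates. With an Hhip minimum of 2000 CPM there were 58 members, with 60 and 56 genes within the tdT-high library; 500 CPM gave 129 members, 1 allowed Pdgfra UMI 117 and thinned cells 122, 95 of them shared. Directions turned for Vsnl1 without the GFP-high tdT-negative library (log2 ratio 0.12, and -4.49 without the tdT-high library), for Ackr3 (0.39), Cemip (0.58), Emp1 (0.87), Grem1 (0.061), Pappa2 (0.74) and Hhip (-0.16) against tdT-high cells with high Hhip, and for the hedgehog list median between gates in cells with Y-linked UMIs (-0.032). The causes were not tested. The alternatives for the tdT-high library were added after the data were seen. The 17 GFP-low members hold 353506 UMIs in all, which limits genes of low level there.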
